A study of Rattus norvegicus with 115 samples.

Results

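Genes of the tumour necrosis factor (TNF) and TNF receptor superfamily were followed in sorted cell fractions of rat mammary tumours. The members were all rows of the gene count table with a symbol of the form Tnfsf or Tnfrsf plus a number, together with Tnf itself, which gave 28 genes of 17455 (11 ligands and 17 receptors once Tnf is counted as a ligand). Virgin Sprague Dawley rats had been given N-nitroso-N-methylurea (NMU), a carcinogen that induces mammary tumours, by 1 to 3 injections of 50 mg/kg at an age of 35 to 53 days, and every tumour described here arose after NMU. The treatment groups received vehicle, the TGFBR1 kinase inhibitor LY2157299, an antibody to PD-L1 (anti-PD-L1) or both agents (combination) once a tumour was palpable, and a further group of tumour-bearing rats received neither; the doses are not given in the labels. Vehicle rats serve as the control for all 3 treatments, so the 3 comparisons share their controls. Each column of the table is 1 sorted fraction of 1 tumour.

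The headings give a rat and its tumour and leave the sorted fraction out, so each of the 107 columns was classed by 2 marker genes. The 44 leukocyte columns (31 rats) had at least 300 CPM (counts scaled to a common column total) of Ptprc, the gene of the leukocyte surface protein CD45, with 486 CPM as the lowest value and 165 CPM in the nearest column left out. The 61 epithelial columns (32 rats) had under 150 CPM of Ptprc (highest 124) and at least 300 CPM of Epcam, an epithelial adhesion protein (lowest 381), and 2 columns fell in neither class. The labels list 45 CD45, 31 Ep and 31 DN (double negative) tumour samples, so at least 30 of the 61 epithelial columns cannot be Ep samples. The epithelial class is therefore a mixture of fractions, and its summed fibroblast markers (6 collagen, matrix and receptor genes) ran from 0.971 to 77937 CPM (median 593), against 3824 to 34652 CPM for 7 luminal epithelial markers. T cell markers (8 measured) summed to 422 to 6937 CPM in leukocyte columns and 0.229 to 393 CPM in epithelial ones, and macrophage markers (8) to 43.5 to 11247 CPM and 10.5 to 1872 CPM. The 7 luminal markers summed to 48.4 to 1519 CPM in leukocyte columns, so both classes held some RNA of other cells. Column totals ran from 2353564 to 29727437 counts, which puts 3 counts at 0.101 to 1.275 CPM. For values by rat, the columns of a rat were summed within a class, giving 31 leukocyte and 32 epithelial libraries. The groups were spread unevenly over the 3 batches that the deposited sample table records, with all untreated leukocyte libraries in batch 1 and all others in batches 2 and 3. In bulk RNA of this kind, fewer cells of a type and less RNA per cell cannot be told apart.

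Ligands of this superfamily are mostly trimeric membrane proteins, some of them shed, that cluster receptors with cysteine-rich extracellular domains. Receptors with a death domain can recruit adaptors and caspase 8. Many receptors of the family activate NF-kappaB and stress kinases through TRAF adaptors. On T cells several members act as costimulators after antigen contact, and in mammary tissue RANK (Tnfrsf11a) and its ligand RANKL (Tnfsf11) drive progesterone-dependent growth of the epithelium.

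Most members were far higher in 1 class than in the other. Of the 24 members that reached a median of 1 CPM in either class, 14 had a median at least 4 times higher in leukocyte than in epithelial libraries (computed with 0.5 CPM added to both), as had 8.87% of the 11785 genes compared, and 6 had one at least 4 times higher in epithelial libraries, as had 17.8% of genes. The remaining 4 of the 24 (Tnfrsf1a, Tnfrsf11a, Tnfsf12 and Tnfsf13) stayed within that fold, and Tnfsf11, Tnfrsf17, Tnfsf13b and Tnfsf15 did not reach 1 CPM in either class. The libraries of the classes did not overlap for 7 members (Tnfrsf4, Tnfrsf9, Tnfrsf14, Tnfrsf18, Tnfrsf12a, Tnfrsf19 and Tnfrsf21), compared with 4.6% of all genes. Because the classes were defined by Ptprc and Epcam of the same columns, these are descriptions without a test. Among the 20 rats whose 2 libraries came from the same batch, 13 and 6 members passed the fold of 4, all of them among the 14 and 6, and Tnf was the member lost. Within batch 3 alone, 12 leukocyte members passed (without Tnfsf4 and Tnfsf8) and 7 epithelial ones (with Tnfrsf1a added).

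**Figure D1:**
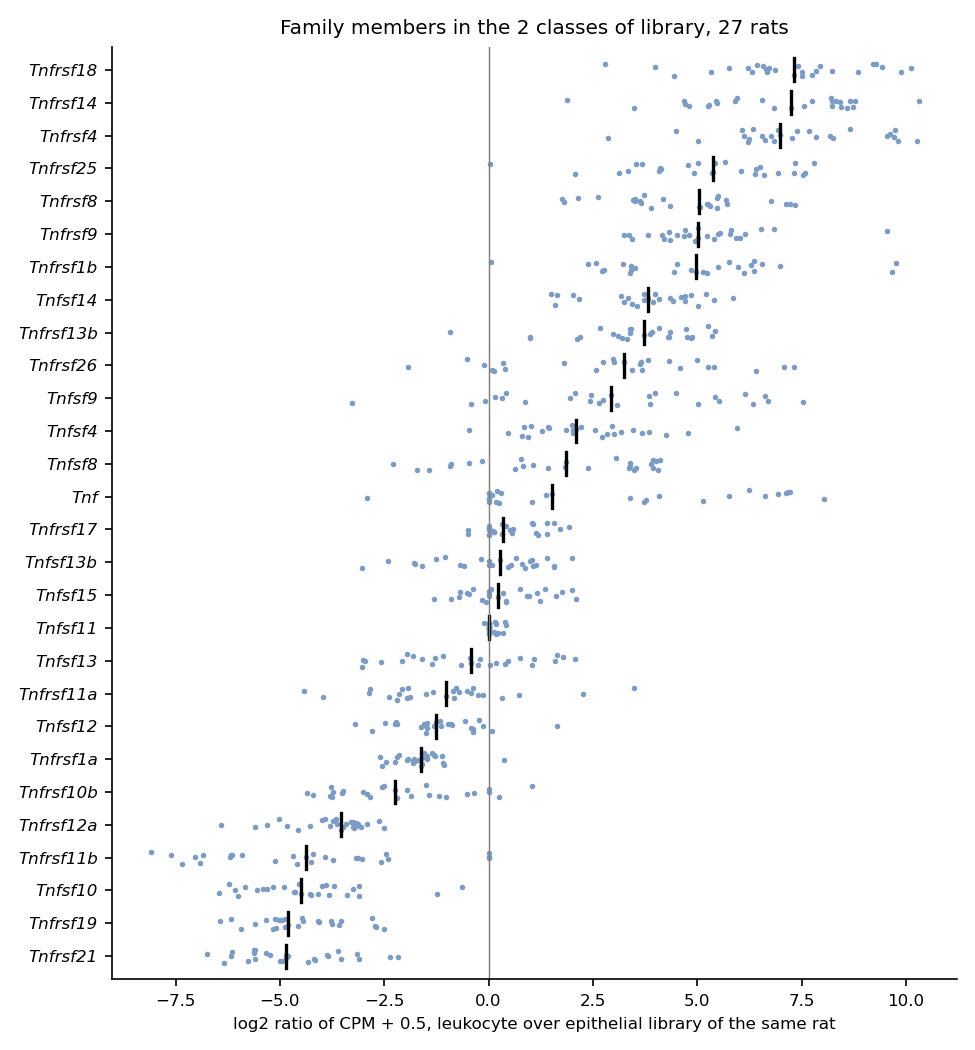
Each point is the log2 ratio of CPM (0.5 added) between the leukocyte and the epithelial library of 1 of 27 rats, and the black bar is the median over rats; members are ordered by that median. Tnfrsf18, Tnfrsf14 and Tnfrsf4 lie farthest to the right, with all 27 rats above 0, and Tnfrsf21, Tnfrsf19 and Tnfrsf12a lie to the left with all 27 below 0.

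All 7 receptors listed as costimulators of T cells were among the 14 members of the leukocyte side. Tnfrsf4, which encodes OX40, was at 374 to 1565 CPM (median 711) in leukocyte libraries and at 0 to 61.2 CPM (median 3.61) in epithelial ones. Tnfrsf18, the gene of GITR, a receptor abundant on regulatory T cells, was at 161 to 676 CPM (median 407) against 0 to 25.5 CPM (median 1.74). Tnfrsf9, which encodes 4-1BB, was at 226 to 1196 CPM (median 478) against 0.067 to 50.1 CPM (median 15.5). In all 3 cases the lowest leukocyte library stood above the highest epithelial one. Tnfrsf14, which encodes the herpesvirus entry mediator HVEM, showed the same separation, at 74.9 to 946 CPM (median 377) against 0 to 22.4 CPM (median 1.47). Within the 27 rats with both libraries, the median log2 ratio was 6.98 (range 2.86 to 10.26) for Tnfrsf4, 7.33 (range 2.79 to 10.12) for Tnfrsf18, 5.01 (range 3.23 to 9.56) for Tnfrsf9 and 7.26 (range 1.89 to 10.31) for Tnfrsf14.

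Tnfrsf1b, the gene of the second TNF receptor, was at 49 to 756 CPM (median 286) in leukocyte libraries and at 0.067 to 81.1 CPM (median 8.49) in epithelial ones; the ranges overlapped, but the leukocyte library was the higher one in all 27 rats. Tnfrsf25 (death receptor 3) was at 5.48 to 238 CPM (median 95.7) against 0 to 7.4 CPM (median 1.6), and Tnfrsf8, which encodes CD30, at 2.35 to 81.2 CPM (median 18.6) against 0 to 5.53 CPM (median 0.31), again with the leukocyte library higher in 27 of 27 rats. Tnfrsf26, a receptor known from rodents, ranged more widely, at 2.96 to 78.9 CPM (median 31.3) against 0 to 44.5 CPM (median 2.65), and was higher in the leukocyte library of 24 rats and lower in 3. Of the receptors of the B cell lineage, Tnfrsf13b (TACI) was at 0 to 22.6 CPM (median 7.96) in leukocyte libraries and at most 1.62 CPM in epithelial ones. Tnfrsf17 (BCMA, a plasma cell receptor) reached at most 1.41 CPM in any leukocyte library, and Tnfrsf13c had no row in the gene count table.

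Promoter sequences of 20 of the 28 members were matched by symbol in RefSeq (assembly GRCr8), and 5 of them are shown as upstream sequence: 3 receptors of the leukocyte side and 2 of the epithelial side. Tnfrsf1b and Tnfrsf8 are neighbours on the same strand and had the smallest p-values for higher counts under the TGFBR1 inhibitor (described with the treatments). Each line gives 200 bases ending at the base before the transcript start, 5′ to 3′ on the gene's strand, with matches to 2 motifs in capitals: the NF-kappaB consensus of 10 bases and the AP-1 sequence TGANTCA, searched on both strands; matches to the 2 motifs did not overlap each other.
Tnfrsf8 (chr5:162451621-162451820, minus strand): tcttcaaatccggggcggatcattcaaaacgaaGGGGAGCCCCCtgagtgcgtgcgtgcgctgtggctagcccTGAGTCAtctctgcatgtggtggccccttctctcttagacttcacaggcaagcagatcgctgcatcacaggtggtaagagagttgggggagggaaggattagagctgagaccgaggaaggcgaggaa
Tnfrsf1b (chr5:162387412-162387611, minus strand): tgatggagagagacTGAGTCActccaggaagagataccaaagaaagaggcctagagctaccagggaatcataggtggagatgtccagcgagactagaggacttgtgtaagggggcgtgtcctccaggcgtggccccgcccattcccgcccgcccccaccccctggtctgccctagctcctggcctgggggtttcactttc
Tnfrsf4 (chr5:171888934-171889133, plus strand): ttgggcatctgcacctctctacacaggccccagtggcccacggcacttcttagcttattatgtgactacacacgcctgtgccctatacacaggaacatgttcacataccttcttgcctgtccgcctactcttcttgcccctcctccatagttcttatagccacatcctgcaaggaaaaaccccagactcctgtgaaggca
Tnfrsf21 (chr9:25451324-25451523, minus strand): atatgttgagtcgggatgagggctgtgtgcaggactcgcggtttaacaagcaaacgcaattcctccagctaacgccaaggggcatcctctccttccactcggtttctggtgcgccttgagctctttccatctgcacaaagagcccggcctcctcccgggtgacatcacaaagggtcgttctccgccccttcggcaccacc
Tnfrsf12a (chr10:13213649-13213848, minus strand): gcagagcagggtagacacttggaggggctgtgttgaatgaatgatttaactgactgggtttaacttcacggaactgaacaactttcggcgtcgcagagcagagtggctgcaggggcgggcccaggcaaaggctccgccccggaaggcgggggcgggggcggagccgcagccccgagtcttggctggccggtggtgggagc
The upstream sequence of Tnfrsf8 held an AP-1 match whose first base is at -127 from the start and 2 overlapping NF-kappaB matches with first bases at -167 and -166, and that of Tnfrsf1b held an AP-1 match at -186. Over the 250 bases before the start, 2 of the 20 members held an NF-kappaB match (Tnfrsf8 and Tnfsf14) and 2 an AP-1 match, compared with 6.33% and 6.34% of 33469 promoters. The other 3 sequences shown held neither motif. The median GC content of these 250 bases was 54.2% for the 10 matched members of the leukocyte side, 50.6% for the 4 of the epithelial side and 51.2% over all promoters, and the coordinates belong to GRCr8, not to the build rn6 named for the counts.

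On the epithelial side, Tnfrsf21 (death receptor 6) was at 194 to 1783 CPM (median 1076) in epithelial libraries and at 11.1 to 77 CPM (median 42.7) in leukocyte ones, without overlap. Tnfrsf12a, which encodes Fn14, the receptor of the ligand TWEAK, was at 74.2 to 1675 CPM (median 246) against 7.4 to 52.7 CPM (median 19.8). Tnfrsf19, a receptor of embryonic and progenitor epithelia also called TROY, was at 5.69 to 57.6 CPM (median 16) against 0 to 3.51 CPM (median 0.303). These 3 genes were lower in the leukocyte library of all 27 rats, with a median log2 ratio of -4.85, -3.55 and -4.81. Tnfsf10, which encodes the death ligand TRAIL, was the 1 ligand on this side, at 6.5 to 274 CPM (median 75) against 0 to 12.5 CPM (median 3.08). Its receptor gene Tnfrsf10b was low in both classes, at 0 to 9.78 CPM (median 2.0) in epithelial libraries and at most 0.796 CPM in leukocyte ones.

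Of the RANK axis, the receptor and its decoy were measured in libraries of the epithelial class, and the ligand was at or near 0. Tnfrsf11a, the gene of RANK, was found in both classes, at 0.101 to 125 CPM (median 35.5) in epithelial libraries and 1.47 to 28.8 CPM (median 16.5) in leukocyte libraries, and the epithelial library was higher in 23 of 27 rats. Tnfrsf11b, which encodes the soluble decoy osteoprotegerin, was at 0 to 219 CPM (median 25.1) in epithelial libraries and at most 2.81 CPM in leukocyte ones. Tnfsf11, the gene of RANKL, did not exceed 0.365 CPM in any leukocyte library or 0.0433 CPM in any epithelial one, with a median of 0 in both. At this depth, where 3 counts correspond to 0.101 CPM or more, a lower level of Tnfsf11 was not detectable. Tnfrsf1a, the death-domain receptor through which soluble TNF acts on most cells, was at 73.8 to 461 CPM (median 127) in epithelial and 22.7 to 140.3 CPM (median 39.7) in leukocyte libraries. Its leukocyte library was the lower one in 26 of 27 rats.

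The counts of Tnf, the name-giving cytokine, followed the batch of the library. In batch 3, Tnf had 111 to 2399 counts in each of the 19 leukocyte columns (16.6 to 131 CPM, median 58.1). The 16 leukocyte columns of batch 2 held 23 Tnf counts in all and the 9 of batch 1 held 7, with at most 0.806 CPM in any of them. The lowest batch 3 column thus stood above every column of the other batches. Within batch 3, the 20 epithelial columns had 0.248 to 11.9 CPM of Tnf (median 2.31), below all 19 leukocyte columns, whereas the 32 epithelial columns of batch 2 held 1 Tnf count and the 9 of batch 1 held 0. Other genes followed the batch in the same way: 38 genes, Tnf among them, had a median of at least 10 CPM in leukocyte columns of batch 3 and under 0.1 CPM in those of batches 1 and 2, 32 genes did so in epithelial columns, and 0 genes showed the reverse in either class. One of them was Hprt1, a housekeeping enzyme of purine salvage that was chosen after its values were seen, at 12 to 26.2 CPM in leukocyte columns of batch 3 and with 0 counts in all 66 columns of the other batches. Ltb, the neighbour of Tnf in the genome, had 13626 counts over the 19 leukocyte columns of batch 3 and 57 over the 16 of batch 2. A Tnf value near 0 outside batch 3 is therefore not read as a low level of the cytokine, and treatment effects on Tnf rest on batch 3. No member other than Tnf was among these genes.

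Of the other ligands, Tnfsf9, the ligand of 4-1BB, was at 3.11 to 106.8 CPM (median 46.6) in leukocyte libraries and 0 to 66 CPM (median 3.71) in epithelial ones, with overlapping ranges. Tnfsf14, which encodes LIGHT, a ligand of HVEM and of the lymphotoxin receptor, was at 1.06 to 28.4 CPM (median 10.5) in leukocyte libraries and at most 1.76 CPM in epithelial ones. The ligand of CD30, Tnfsf8, was at 1.73 to 15.2 CPM (median 7.12) against 0 to 15.4 CPM (median 1.2), and was higher in the leukocyte library of 20 of 27 rats. Tnfsf4, the ligand of OX40, was at 0.719 to 37.2 CPM (median 3.69) in leukocyte libraries and 0 to 19.2 CPM (median 0.161) in epithelial ones, and was higher in the leukocyte library of 26 of 27 rats. The neighbouring genes Tnfsf12 (TWEAK) and Tnfsf13 (APRIL, a survival factor of plasma cells) were present in both classes. Tnfsf12 was at 2.34 to 49.2 CPM (median 14.8) in leukocyte and 4.4 to 70.4 CPM (median 30.8) in epithelial libraries, and Tnfsf13 at 3.91 to 87 CPM (median 29.6) and 7.56 to 101.6 CPM (median 41.3). The labels do not say how reads were assigned where these 2 genes adjoin, and counts of one may include reads of the other. Tnfsf13b (BAFF, the B cell survival factor) stayed at or below 2.39 CPM in leukocyte and 6.43 CPM in epithelial libraries, and Tnfsf15 at or below 2.46 and 1.54 CPM.

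Members of the superfamily that carry other symbols divided in a like way. Of 13 such genes in the table, 12 reached a median of 1 CPM in a class; 8 were at least 4 times higher in leukocyte libraries, 1 in epithelial ones and 3 in neither. One of the 8 was Ltb, whose counts followed the batch; its median log2 ratio was 1.00 in the 20 rats with both libraries in the same batch, under the fold of 4. Cd27, a costimulatory receptor of T cells, was at 30.4 to 569 CPM (median 175) in leukocyte libraries and 0 to 24.8 CPM (median 0.477) in epithelial ones, and Faslg, the ligand of the death receptor Fas, at 6.19 to 121 CPM (median 41.7) against 0 to 4.03 CPM (median 0.153), both without overlap. Cd40lg, the helper T cell ligand of CD40, was at 5.97 to 91.5 CPM (median 39.5) against 0 to 8.0 CPM (median 0.147). The lymphotoxin receptor gene Ltbr went the other way, at 44.9 to 194 CPM (median 104.9) in epithelial and 4.89 to 52.6 CPM (median 17.5) in leukocyte libraries, and was lower in the leukocyte library of 27 of 27 rats.

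Within each class, members varied with the marker genes of particular cells. Each member other than Tnf with a median of at least 1 CPM in the class was compared over rat libraries with the mean log2(CPM + 1) of marker lists, which made 118 relations (20 members with 4 lists in 31 leukocyte libraries and 19 members with 2 lists in 32 epithelial libraries). The p-values are two-sided from 100000 permutations, of which 1.0e-05 is the smallest possible. Libraries were permuted over the whole class, without regard to batch or treatment group. These p-values therefore do not separate a relation within groups from differences between groups or batches. Batches 1, 2 and 3 held 7, 7 and 17 leukocyte libraries and 7, 14 and 11 epithelial libraries, and no p-value was computed within a batch. Relations were computed for members only, so the share of all genes related to any list is not known. Counts of related members are therefore no result about the family. In leukocyte libraries, Tnfsf12 varied with 8 macrophage markers (Pearson's r = 0.87 and Spearman's rho = 0.78, permutation p = 1.0e-05 and 1.0e-05, Benjamini-Hochberg adjusted p = 0.00015 and 0.00012). Without the 2 libraries farthest from the median marker level, r was 0.81, and within batches 1, 2 and 3 it was 0.82, 0.94 and 0.86. Tnfsf13 did the same (Pearson's r = 0.82 and Spearman's rho = 0.85, permutation p = 1.0e-05 and 1.0e-05, Benjamini-Hochberg adjusted p = 0.00015 and 0.00012). Its r was 0.77 without 2 libraries and 0.67, 0.97 and 0.80 within batches. The relation of Tnfrsf1b to these macrophage markers was inverse (Pearson's r = -0.70 and Spearman's rho = -0.69, permutation p = 2.0e-05 and 8.0e-05, Benjamini-Hochberg adjusted p = 0.00026 and 0.00056). Its r was -0.68 without 2 libraries and -0.80, -0.77 and -0.64 within batches.

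Regulatory T cell markers (Foxp3, Il2ra, Ctla4 and Ikzf2) were related to 8 of the 20 members at an adjusted p under 0.05 by Pearson's r (7 positively) and to 8 by Spearman's rho (6 positively). The highest coefficients were those of 3 receptors. For Tnfrsf14 the coefficients were Pearson's r = 0.79 and Spearman's rho = 0.79 (permutation p = 1.0e-05 and 2.0e-05, Benjamini-Hochberg adjusted p = 0.00015 and 0.00021), with r = 0.62 without the 2 farthest libraries and 0.82, 0.76 and 0.81 within the 3 batches. For Tnfrsf1b they were Pearson's r = 0.76 and Spearman's rho = 0.71 (permutation p = 1.0e-05 and 6.0e-05, Benjamini-Hochberg adjusted p = 0.00015 and 0.00051). Without the 2 farthest libraries its r was 0.63, and within batches it was 0.80, 0.93 and 0.78. For Tnfrsf8 they were Pearson's r = 0.68 and Spearman's rho = 0.73 (permutation p = 6.0e-05 and 1.0e-05, Benjamini-Hochberg adjusted p = 0.00051 and 0.00012). Without the 2 farthest libraries its r was 0.66, and within batches it was 0.56, 0.67 and 0.81. Tnfrsf25 (Pearson's r = 0.67 and Spearman's rho = 0.43, permutation p = 0.00042 and 0.017, Benjamini-Hochberg adjusted p = 0.0019 and 0.042) gave r = 0.31 without the 2 farthest libraries and had opposite signs in the batches (0.89, -0.43 and 0.59). That relation was thus weaker without those libraries and did not hold in every batch. Tnfrsf26 (Pearson's r = 0.53 and Spearman's rho = 0.45, permutation p = 0.0032 and 0.011, Benjamini-Hochberg adjusted p = 0.01 and 0.031) was related positively, with r = 0.34 without 2 libraries and 0.58, 0.56 and 0.29 within batches. Tnfrsf1a was related inversely (Pearson's r = -0.57 and Spearman's rho = -0.59, permutation p = 0.00071 and 0.00052, Benjamini-Hochberg adjusted p = 0.0029 and 0.0027). Without the 2 farthest libraries its r was -0.59, and within batches it was -0.56, -0.28 and -0.57. Tnfrsf18 and Tnfrsf4, whose proteins mark regulatory T cells in many settings, gave smaller coefficients. For Tnfrsf18 they were Pearson's r = 0.45 and Spearman's rho = 0.26 (permutation p = 0.012 and 0.15, Benjamini-Hochberg adjusted p = 0.03 and 0.24), with r = 0.26 without the 2 farthest libraries. Its r was 0.72, -0.46 and 0.50 within batches 1, 2 and 3 (7, 7 and 17 libraries). That relation thus did not hold in every batch or by Spearman's rho. For Tnfrsf4 they were Pearson's r = 0.38 and Spearman's rho = 0.37 (permutation p = 0.033 and 0.04, Benjamini-Hochberg adjusted p = 0.067 and 0.082), and the adjusted p missed 0.05. Within the same batches the r of Tnfrsf4 was 0.22, -0.31 and 0.59. Of the other leukocyte lists, macrophage markers were related to 8 of 20 members by Pearson's r (3 positively), T cell markers to 6 (4 positively) and B cell markers to 3 (2 positively). Tnfsf10, the TRAIL gene, varied with T cell markers (Pearson's r = 0.69 and Spearman's rho = 0.65, permutation p = 4.0e-05 and 0.00011, Benjamini-Hochberg adjusted p = 0.00039 and 0.00068). Without the 2 farthest libraries its r was 0.51, and within batches it was 0.84, 0.59 and 0.69.

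In epithelial libraries, 3 receptors varied with the fibroblast markers. Tnfrsf11b had the highest coefficients of the family (Pearson's r = 0.88 and Spearman's rho = 0.89, permutation p = 1.0e-05 and 1.0e-05, Benjamini-Hochberg adjusted p = 0.00015 and 0.00012), with r = 0.85 without the 2 farthest libraries and 0.94, 0.79 and 0.90 within batches 1, 2 and 3. Tnfrsf10b (Pearson's r = 0.82 and Spearman's rho = 0.82, permutation p = 1.0e-05 and 1.0e-05, Benjamini-Hochberg adjusted p = 0.00015 and 0.00012; 0.98, 0.56 and 0.80 within batches) and Tnfrsf1a (Pearson's r = 0.76 and Spearman's rho = 0.80, permutation p = 1.0e-05 and 1.0e-05, Benjamini-Hochberg adjusted p = 0.00015 and 0.00012; 0.95, 0.59 and 0.74 within batches) did so too. Tnfrsf21 ran the opposite way (Pearson's r = -0.59 and Spearman's rho = -0.61, permutation p = 0.00029 and 0.00033, Benjamini-Hochberg adjusted p = 0.0015 and 0.0019; -0.83, -0.33 and -0.64 within batches). For Tnfrsf12a and Tnfrsf19 no relation was seen (r = 0.18 and -0.07; adjusted p = 0.41 and 0.76, permutation test). Of the 19 members tested, 13 related to the fibroblast list at an adjusted p under 0.05 by either coefficient, 10 of them positively. The share of all genes related to the fibroblast or the luminal list was not computed. The genes of osteoprotegerin and of the TNF and TRAIL receptors thus had higher values in epithelial-class libraries with more fibroblast RNA. Luminal markers were related to 14 of the 19 members by Pearson's r, 10 of them inversely, and to 12 by Spearman's rho, again 10 inversely. Epcam, whose level admitted columns to the epithelial class, is among these luminal markers. Relations to the list without Epcam were not computed, so those to the luminal list are description only. Tnfrsf11b was among the inverse ones (Pearson's r = -0.64 and Spearman's rho = -0.70, permutation p = 0.00016 and 1.0e-05, Benjamini-Hochberg adjusted p = 0.00099 and 0.00012), with r = -0.63 without 2 libraries and -0.83, -0.39 and -0.56 within batches. So was Tnfrsf10b (Pearson's r = -0.77 and Spearman's rho = -0.82, permutation p = 1.0e-05 and 1.0e-05, Benjamini-Hochberg adjusted p = 0.00015 and 0.00012), with r = -0.76 without 2 libraries and -0.83, -0.65 and -0.75 within batches.

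**Figure D2:**
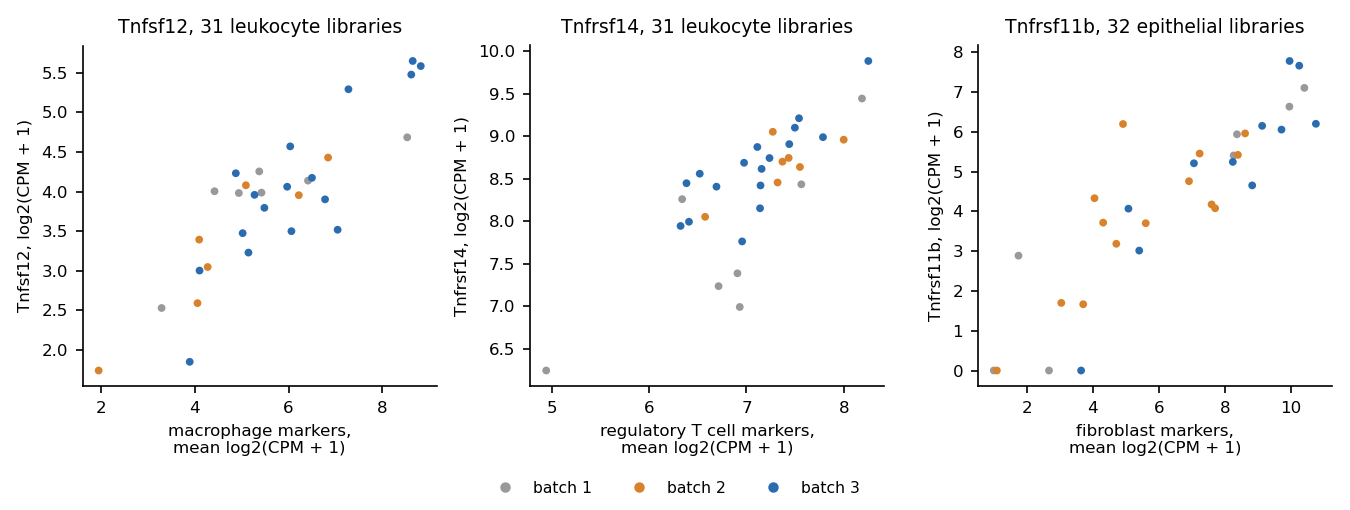
Each point is the library of 1 rat, coloured by batch: Tnfsf12 against macrophage markers and Tnfrsf14 against regulatory T cell markers in 31 leukocyte libraries, and Tnfrsf11b against fibroblast markers in 32 epithelial libraries, all as log2(CPM + 1). The points of all 3 batches rise from left to right in each panel, with Pearson's r of 0.87, 0.79 and 0.88.

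Whether treatment of the rat altered the family in tumour leukocytes was examined with libraries of 8 rats given vehicle, 5 the TGFBR1 inhibitor, 5 anti-PD-L1 and 6 the combination, 1 per rat, with batch as a covariate. No member, and no gene at all, passed edgeR's quasi-likelihood test at a Benjamini-Hochberg adjusted p under 0.05 in any of the 3 comparisons (0 of 24 members and 0 of 11628 genes, 0.0%). At an unadjusted p under 0.05 stood 5 of 24 members under the inhibitor, 3 under anti-PD-L1 and 5 under the combination, beside 18%, 9.06% and 11.6% of all genes, and with so few members these shares are no result about the family. The median log2 fold change of the members was -0.06, 0.19 and 0.11 against medians of 0.00, -0.01 and 0.01 over all genes. Tnfrsf10b, Tnfrsf19, Tnfsf11 and Tnfrsf17 had too few counts to be tested. DESeq2 called 430, 65 and 92 genes on the same libraries, with 2 members (Tnfrsf8 and Tnfsf13) under the inhibitor and 0 in the other comparisons.

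**Figure D3:**
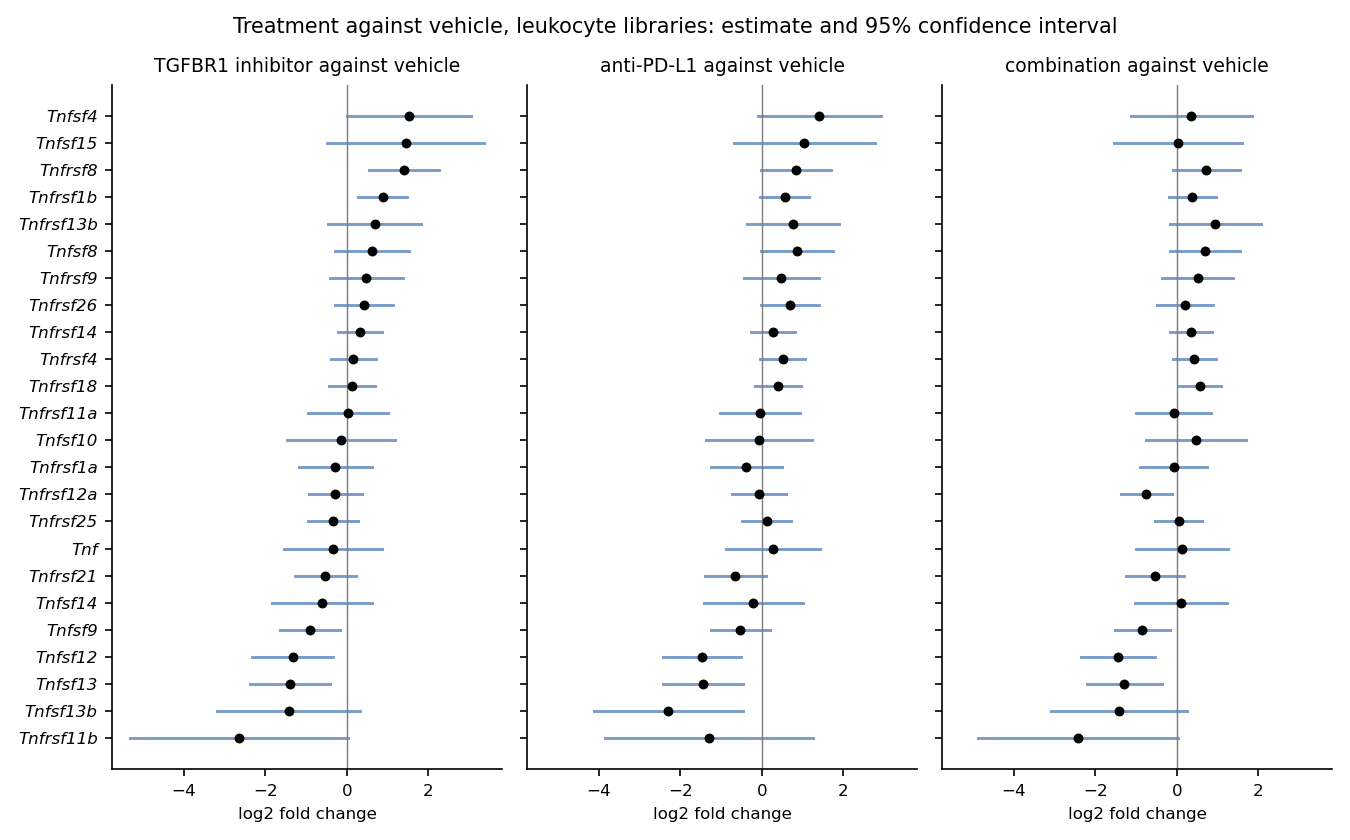
Points are log2 fold changes against vehicle of the 24 members tested in leukocyte libraries and bars their 95% confidence intervals from edgeR, ordered by the value under the TGFBR1 inhibitor. Tnfsf12 and Tnfsf13 lie left of 0 in all 3 panels, with intervals that do not reach 0.

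Tnfsf12 and Tnfsf13, the neighbouring ligand genes, had lower estimates than vehicle and unadjusted p-values under 0.05 in all 3 comparisons. Tnfsf13 was at 11.4 to 87 CPM (median 57.3) in the 8 vehicle rats. It was at 3.91, 10.5, 26.8, 31.2 and 32.4 CPM in the 5 inhibitor rats, at 5.49, 20.1, 24.7, 29.6 and 34.4 CPM in the 5 anti-PD-L1 rats and at 13.1 to 39.2 CPM (median 18.6) in the 6 combination rats. All but 1 of the vehicle values lay above every treated value, and the exception was vehicle rat P7, at 11.4 CPM. The log2 fold changes were -1.39 ± 0.48 (SE; 95% interval -2.38 to -0.40; edgeR adjusted p = 0.154) under the inhibitor, -1.44 ± 0.47 (95% interval -2.42 to -0.46; adjusted p = 0.419) under anti-PD-L1 and -1.29 ± 0.45 (95% interval -2.21 to -0.37; adjusted p = 0.305) under the combination.

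Tnfsf12 was at 5.03 to 49.2 CPM (median 30.5) in vehicle rats, at 2.61, 8.38, 9.51, 15.9 and 17.1 CPM in inhibitor rats, at 2.34, 10.3, 14, 14.6 and 17.8 CPM in anti-PD-L1 rats and at 7.02 to 14.5 CPM (median 10.3) in combination rats. Vehicle rats P7 and P13 lay within the range of the treated values, and the other 6 vehicle rats lay above all of them. Its log2 fold changes were -1.33 ± 0.48 (SE; 95% interval -2.33 to -0.33; edgeR adjusted p = 0.172), -1.46 ± 0.46 (95% interval -2.42 to -0.51; adjusted p = 0.419) and -1.44 ± 0.44 (95% interval -2.36 to -0.53; adjusted p = 0.299). Within batch 3 alone they were -1.38 under anti-PD-L1 and -1.76 under the combination. The summed macrophage markers moved with both ligands: 217 to 6501 CPM (median 1901) in vehicle libraries, 197 to 1242 CPM (median 440.4) under the inhibitor, 43.5 to 1322 CPM (median 515) under anti-PD-L1 and 219 to 1867 CPM (median 529) under the combination. All 8 markers had lower estimates than vehicle in each comparison and 0 passed. Neutrophil markers summed to 70.2 to 2679 CPM (median 235) in vehicle libraries, 6.17 to 359 CPM (median 32.6) under the inhibitor, 2.08 to 937 CPM (median 29.1) under anti-PD-L1 and 34.4 to 129 CPM (median 83.8) under the combination. All 5 neutrophil, 7 luminal and 5 basal markers also had lower estimates than vehicle in each comparison and 0 passed, with medians of -2.51, -0.74 and -2.14 for the neutrophil list. The part of these lists in the ligand values was not tested. When each column was taken as its own library, Tnfsf12 and Tnfsf13 passed under anti-PD-L1 and the combination, and limma voom on columns, with the rat as a random block, called both under the combination.

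Tnfsf13b pointed the same way at far lower counts. It was at 0 to 2.39 CPM (median 1.61) in vehicle rats, at 0, 0.326, 0.412, 0.529 and 1.44 CPM in inhibitor rats, at 0, 0.25, 0.274, 0.333 and 0.901 CPM in anti-PD-L1 rats and at 0.182 to 0.991 CPM (median 0.46) in combination rats, with a log2 fold change of -2.29 ± 0.88 (SE; 95% interval -4.12 to -0.47; edgeR adjusted p = 0.488) under anti-PD-L1. Most values were under 1 CPM, near the level of 3 counts in the shallower libraries. Tnfsf9, the 4-1BB ligand, was at 46.5 to 105.2 CPM (median 70.7) in vehicle rats, at 23.3, 33, 33.9, 53.6 and 55.8 CPM in inhibitor rats, at 27.7, 34.9, 46.6, 53.7 and 106.8 CPM in anti-PD-L1 rats and at 19.1 to 85.8 CPM (median 37) in combination rats. The groups overlapped, and the log2 fold change was -0.85 ± 0.33 (SE; 95% interval -1.53 to -0.17; edgeR adjusted p = 0.347) under the combination.

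Under the TGFBR1 inhibitor the 2 smallest p-values belonged to the neighbouring receptor genes Tnfrsf8 and Tnfrsf1b, both with higher estimates. Tnfrsf8 (CD30) was at 10.5 to 33.3 CPM (median 13) in vehicle rats and at 12.8, 15.6, 35.6, 74.6 and 80.7 CPM in inhibitor rats. In inhibitor rats, 3 of the 5 values exceeded the highest vehicle value and the other 2 lay within the vehicle range. The log2 fold change was 1.41 ± 0.42 (SE; 95% interval 0.55 to 2.27; edgeR adjusted p = 0.122), and it was 1.67 within batch 3. Tnfrsf8 was at 17.6, 19.3, 20.4, 27.1 and 69.4 CPM in anti-PD-L1 rats and 12.8 to 51.8 CPM (median 24.6) in combination rats. Tnfrsf1b was at 102.5 to 422 CPM (median 205) in vehicle rats and at 274, 306, 339, 524 and 741 CPM in inhibitor rats, and every inhibitor value exceeded all vehicle values except that of rat P7. Its log2 fold change was 0.88 ± 0.29 (SE; 95% interval 0.27 to 1.48; edgeR adjusted p = 0.147), with 233, 286, 291, 304 and 582 CPM in anti-PD-L1 rats and 189 to 417 CPM (median 307) in combination rats. Without vehicle rat P7, edgeR called 330 genes under the inhibitor in place of 0, and both receptors were among them (Tnfrsf8 log2 1.62, Tnfrsf1b 1.10, adjusted p = 0.0461 for each, against 0.0403 to 0.352 and 0.0461 to 0.363 over all alternatives of Tnfrsf8 and Tnfrsf1b). The summed regulatory T cell markers were 441 to 1276 CPM (median 538) in vehicle libraries, 432 to 1763 CPM (median 1259) under the inhibitor, 781 to 1056 CPM (median 1009) under anti-PD-L1 and 891 to 1855 CPM (median 976) under the combination, and their part in the receptor values was not tested.

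**Figure D4:**
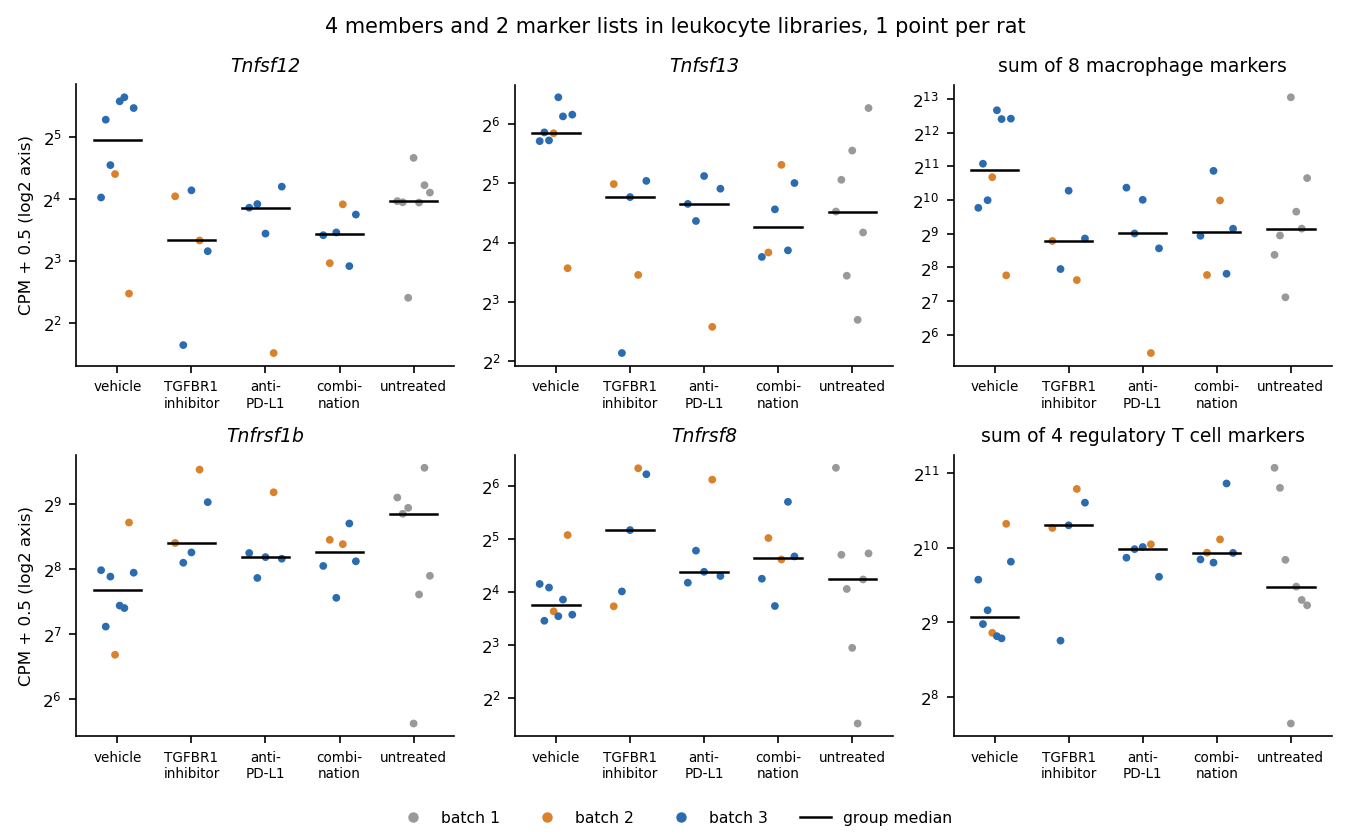
Each point is the leukocyte library of 1 rat, coloured by batch, with the group median as a bar: Tnfsf12, Tnfsf13, Tnfrsf1b and Tnfrsf8 beside the summed macrophage and regulatory T cell markers, as CPM + 0.5 on a log2 axis. The vehicle medians of Tnfsf12 and Tnfsf13 (30.5 and 57.3 CPM) stand above those of all treated groups, and the vehicle medians of Tnfrsf1b and Tnfrsf8 (205 and 13 CPM) below them.

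Of the 7 costimulatory receptors, 6, 7 and 7 had estimates above 0 under the inhibitor, anti-PD-L1 and the combination (medians 0.32, 0.48 and 0.43), and 0 passed. Of all genes, 49.8%, 49.4% and 51.2% had estimates above 0, and the 3 comparisons share their vehicle rats. In each fit all 4 regulatory T cell markers had estimates above 0 and all 8 macrophage markers below 0. All 5 B cell markers were above 0 as well, with medians of 1.86, 3.66 and 3.38, and 0 of them passed. The part of these lists in the receptor estimates was not tested. Tnfrsf4 was at 377 to 802 CPM (median 658) in vehicle rats, at 387, 595, 807, 865 and 925 CPM in inhibitor rats, at 549, 657, 779.8, 1124 and 1565 CPM in anti-PD-L1 rats and at 698 to 1196 CPM (median 809.7) in combination rats. Its log2 fold changes were 0.16 ± 0.27, 0.51 ± 0.27 and 0.43 ± 0.25 (SE), and the interval under anti-PD-L1 ran from -0.04 to 1.06. The vehicle range overlapped all 3 treated ranges. Tnfrsf18 was at 161 to 469 CPM (median 369) in vehicle rats and at 262, 319, 364, 407 and 538 CPM, 251, 320.5, 498, 595 and 626 CPM and 376 to 676 CPM (median 491) under the inhibitor, anti-PD-L1 and the combination, with a log2 fold change of 0.56 ± 0.26 (SE; 95% interval 0.02 to 1.09; edgeR adjusted p = 0.413) for the combination. Tnfrsf9 was at 226 to 1196 CPM (median 335) in vehicle rats, where the highest value belonged to a batch 2 library. It was at 424, 593, 624, 693 and 745 CPM under the inhibitor, at 254, 347, 528, 703 and 1069.7 CPM under anti-PD-L1 and at 301 to 1123 CPM (median 458) under the combination, with intervals of -0.42 to 1.38, -0.44 to 1.39 and -0.37 to 1.39. The vehicle range of Tnfrsf9 covered all treated values.

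Tnf itself was compared within batch 3, where it was counted. It was at 16.6 to 131 CPM (median 47.9) in the 6 vehicle rats of that batch, at 17.2, 60.3 and 74.2 CPM in the 3 inhibitor rats, at 39.4, 51, 62.9 and 90.5 CPM in the 4 anti-PD-L1 rats and at 18.5, 58.1, 69 and 73.6 CPM in the 4 combination rats. The treated values lay within the vehicle range. Over all libraries, with batch in the model, the intervals of the log2 fold change were -1.54 to 0.86, -0.88 to 1.42 and -1.0 to 1.25. Its receptor gene Tnfrsf1a was at 28 to 89.6 CPM (median 54.1) in vehicle rats, at 22.7, 31.9, 36.8, 52 and 71.3 CPM under the inhibitor, at 30.1, 33.9, 36.4, 39.7 and 75.2 CPM under anti-PD-L1 and at 24.4 to 140.3 CPM (median 30.1) under the combination, with overlap of all groups. Tnfrsf11a was at 6.74 to 28.3 CPM (median 13.5) in vehicle rats and at 1.47, 17.4, 19.7, 21.8 and 23.8 CPM, 6.23, 12.2, 16.5, 19.2 and 26.1 CPM and 12.8 to 21.2 CPM (median 15.4) in the same order of treatments. Tnfrsf11b was under 3 CPM in every leukocyte library.

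**Figure D5:**
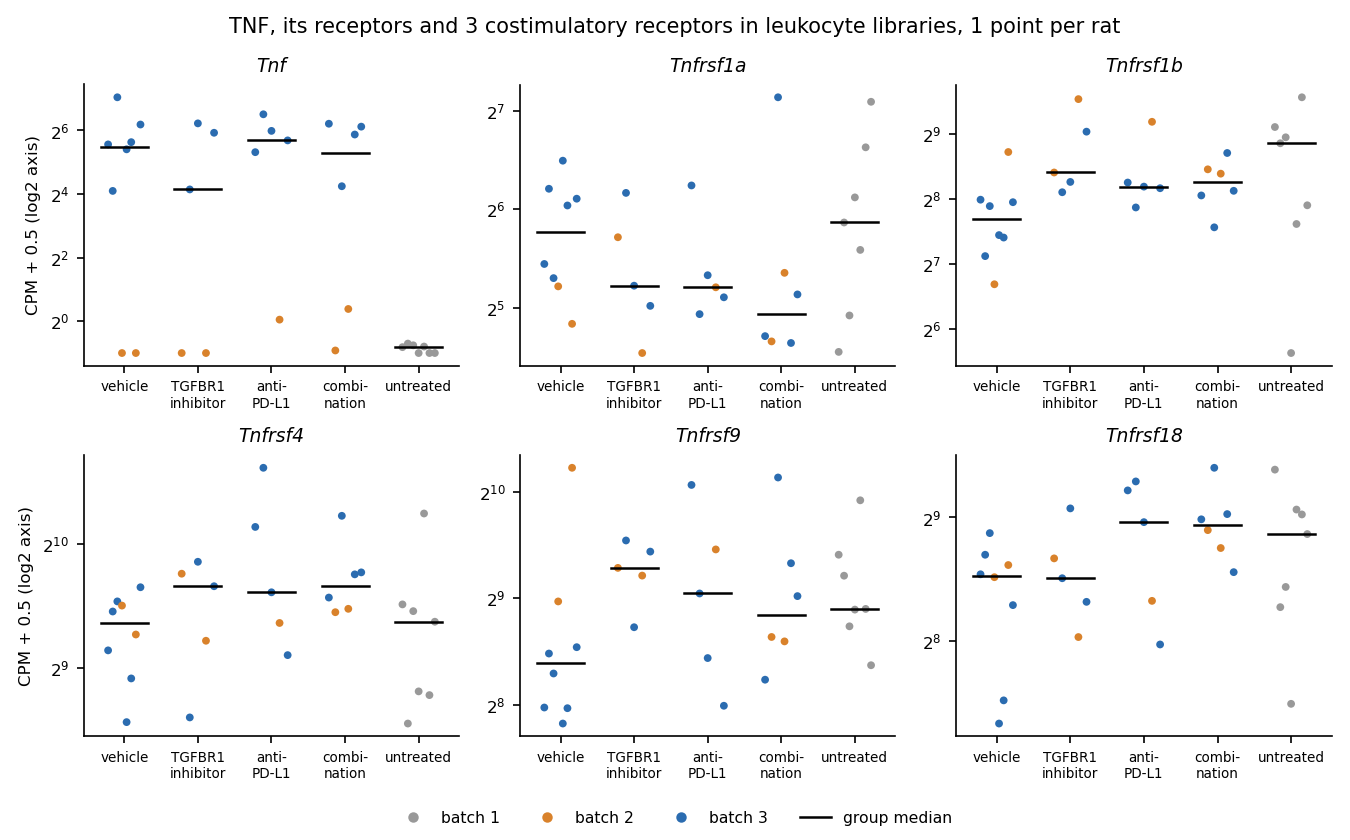
Each point is the leukocyte library of 1 rat, coloured by batch, with the group median as a bar, as CPM + 0.5 on a log2 axis. Tnf separates by batch (16.6 to 131 CPM in batch 3, at most 0.806 CPM in batches 1 and 2) while Tnfrsf1a, Tnfrsf1b, Tnfrsf4, Tnfrsf9 and Tnfrsf18 overlap between batches and groups.

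Of the 24 members tested in leukocytes, the rest had unadjusted p-values above 0.05 in each comparison, apart from Tnfrsf12a under the combination (log2 -0.75 ± 0.30, SE; edgeR adjusted p = 0.356). The largest estimate among them came with a wide interval, that of Tnfrsf11b under the inhibitor (-2.64, 95% interval -5.32 to 0.04), where the 8 vehicle rats had at most 2.81 CPM and the 5 inhibitor rats at most 0.529 CPM.

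The same comparisons were made in epithelial libraries, with 7 rats given vehicle, 4 the TGFBR1 inhibitor, 7 anti-PD-L1 and 6 the combination. All 4 inhibitor libraries came from batch 2. The sorted fractions were also uneven between groups. By the labels, vehicle rats P5, P6 and P10 had DN but no Ep samples, and inhibitor rats P19 and P21 had Ep but no DN samples. The part of the fraction in the values and estimates below was not tested. None of the 25 members tested and none of 13369 genes passed edgeR's test at an adjusted p under 0.05 (0.0% in each comparison). At an unadjusted p under 0.05 stood 0, 1 and 0 members, beside 5.62%, 4.1% and 4.45% of genes. DESeq2 called 40 genes under the inhibitor, 1 under anti-PD-L1 and 0 under the combination, with 0 members in each. That member was Tnfsf12, at 29.4 to 70.4 CPM (median 40.9) in vehicle rats, 22.4, 25.7, 28 and 28.9 CPM in inhibitor rats, 12.7 to 46.3 CPM (median 32.9) in anti-PD-L1 rats and 19.8 to 59.4 CPM (median 33.1) in combination rats. The 4 inhibitor values all lay below the lowest vehicle value, while the other groups overlapped with vehicle. Its log2 fold changes were -0.49 ± 0.30 (SE; 95% interval -1.12 to 0.13), -0.53 ± 0.25 (95% interval -1.04 to -0.02) and -0.44 ± 0.25 (95% interval -0.96 to 0.09), with edgeR adjusted p = 0.978, 0.97 and 0.979.

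The other members with small p-values in epithelium were sparse genes. Tnfrsf10b, a TRAIL receptor, was at 0.348 to 6.41 CPM (median 5.11) in vehicle rats and at 0, 0.565, 0.634 and 0.838 CPM in inhibitor rats (log2 -2.20 ± 1.15, SE; 95% interval -4.58 to 0.18; edgeR adjusted p = 0.939). Tnfsf9 was at 0.127 to 37.1 CPM (median 4.54) in vehicle rats, at 3.38, 5.56, 24.6 and 30.5 CPM under the inhibitor and at 0.597 to 14.1 CPM (median 1.9) under the combination, with estimates of opposite sign (1.97 ± 1.09 and -1.41 ± 0.94, SE). Both intervals included 0. Tnfsf4 had an estimate of 2.31 ± 1.44 (SE) under anti-PD-L1, which rested on rat P28 at 19.2 CPM, since the 6 other anti-PD-L1 rats had at most 1.85 CPM and the estimate without P28 was -0.24. The epithelial column of P28 had 124 CPM of Ptprc, the highest of its class, and the part of leukocyte RNA in its Tnfsf4 value was not tested. Tnfsf13b under anti-PD-L1 (-1.81 ± 1.17) and Tnfsf8 under the combination (-1.66 ± 1.35) completed the list. The summed fibroblast markers were 116 to 32157 CPM (median 6855) in vehicle libraries and 165 to 15955 CPM (median 499), 13.5 to 40779.9 CPM (median 4779) and 284 to 10862 CPM (median 919) under the inhibitor, anti-PD-L1 and the combination, and their part in these values was not tested.

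The epithelial receptors with high counts gave narrower intervals around 0. Tnfrsf1a was at 96.7 to 265 CPM (median 148) in vehicle rats, at 79.5, 101.7, 105.2 and 177 CPM under the inhibitor, at 73.8 to 461 CPM (median 131) under anti-PD-L1 and at 94.3 to 394 CPM (median 123) under the combination. Its intervals of the log2 fold change were -0.75 to 0.99, -0.85 to 0.61 and -0.67 to 0.80. For Tnfrsf21 they were -0.83 to 0.82, -0.32 to 1.03 and -0.69 to 0.70. RANK stayed variable within every group: Tnfrsf11a was at 25.7 to 94.2 CPM (median 36.8) in vehicle rats, at 31.7, 41.5, 92.8 and 110.3 CPM under the inhibitor, at 0.101 to 125 CPM (median 25.4) under anti-PD-L1 and at 10.05 to 108.1 CPM (median 45.3) under the combination. Tnfrsf11b was at 2.25 to 202 CPM (median 36) in vehicle rats and at 2.17, 19.1, 41.8 and 72.3 CPM, 0 to 219 CPM (median 17.1) and 8.1 to 70.01 CPM (median 14) in the same order. All these groups overlapped.

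Genes around the family were counted in the same fits. Of 30 adaptors, kinases and NF-kappaB proteins of TNF receptor signalling, 27, 25 and 25 had estimates above 0 in leukocytes under the inhibitor, anti-PD-L1 and the combination, with medians of 0.29, 0.31 and 0.26, whereas 49.8%, 49.4% and 51.2% of all genes did. None of the 30 passed the adjusted test in any comparison. At an unadjusted p under 0.05 stood 7 of them under the inhibitor, 3 under anti-PD-L1 and 3 under the combination, all with higher estimates. Of all genes tested in leukocytes, 18%, 9.06% and 11.6% stood there, and with so few genes these counts are no result about signalling. Of 19 NF-kappaB target genes tested, 9, 8 and 10 had estimates above 0 and 0 passed. Of 12 superfamily genes with other symbols, 0 passed; the smallest p in each comparison was that of Ltbr, the lymphotoxin receptor (log2 -1.81 ± 0.40, -1.36 ± 0.39 and -1.32 ± 0.37, SE; edgeR adjusted p = 0.105, 0.419 and 0.282). In epithelial libraries 0 of 30 signalling genes, 0 of 21 NF-kappaB targets and 0 of 11 superfamily genes passed in any of the 3 comparisons. There, 24, 14 and 11 signalling genes had estimates above 0 under the inhibitor, anti-PD-L1 and the combination. So had 17, 6 and 3 NF-kappaB targets, beside 48.9%, 48.5% and 43.9% of all genes.

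Leukocytes of tumours from untreated rats (7 rats, all in batch 1) held the same set of receptors. Tnfrsf4 was at 374 to 1212 CPM (median 661), Tnfrsf18 at 179.8 to 669 CPM (median 466) and Tnfrsf9 at 331 to 968 CPM (median 478). Tnfrsf1b was at 49 to 756 CPM (median 463), Tnfrsf1a at 22.9 to 136 CPM (median 57.8) and Tnfsf13 at 6.0 to 76.6 CPM (median 22.5). These ranges overlapped those of vehicle rats, and the vehicle treatment and the batch cannot be told apart here. The summed neutrophil markers reached 47289 CPM in the library of untreated rat C9, and their part in its values was not tested. In epithelial libraries of 8 untreated rats, Tnfrsf21 was at 343 to 1304 CPM (median 697), Tnfrsf12a at 404 to 1675 CPM (median 668) and Tnfrsf11b at 0 to 137 CPM (median 39.1).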

How the data were processed

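RNA of sorted tumour fractions was amplified from low input and sequenced, per the labels' protocols. The authors deposited 1 table of raw counts by gene symbol. The submitters' processing notes name STAR, FastQC and the build rn6; no label names the counting tool, annotation or strand setting, so reads of overlapping or adjoining genes cannot be told apart. Of 108 columns, 107 were used: 13 matched 1 sample by name and 94 matched a group through the rat in their name, and 1 without a name was left out. Where a column's rat and tumour disagreed with the labels in number, the heading was followed. Batch comes from the deposited sample table.

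CPM used column totals. Columns of a rat were summed within class and batch, keeping the batch with most columns. Treatments were tested with edgeR 4.0.16 (quasi-likelihood F test, TMM, filterByExpr, batch as covariate, all 4 arms in 1 fit; SE from the F statistic) in R 4.3.3, with Benjamini-Hochberg adjustment over all genes tested, and checked on simulated data. DESeq2 1.42.0 and limma 3.58.1 were alternatives. Named were the 3 members with the smallest p in each comparison and a fixed set of receptors and ligands. Members and lists were chosen with earlier results of these data known. No molecular identifiers are described, so the level of 3 counts covers counting error only. Mammary glands were not analysed here.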

Additional observations from a re-analysis of the deposited data

Results flagged for a closer look

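Values of the named members were examined for single rats far from the others of their group (on log2(CPM + 0.5), groups of 4 to 8 rats with a highest value of at least 1 CPM). A rat stood apart in 17 of 125 groups. The limit used would flag about 1 group in 20 if values were independent and normally distributed. The groups mix batches and reuse the same rats for several members, so no excess over chance can be read from this count. In leukocyte libraries, vehicle rat P7 stood apart for 3 members: Tnfrsf8 (33.3 CPM, the other 7 rats 10.5 to 17.3 CPM), Tnfsf13 (11.4 CPM, the other 7 rats 51.9 to 87 CPM) and Tnfsf13b (0 CPM, the other 7 rats 0.986 to 2.39 CPM). Anti-PD-L1 rat P28 stood apart for Tnf (0.536 CPM, the other 4 rats 39.4 to 90.5 CPM), a batch 2 library beside 4 of batch 3, and for Tnfsf12 (2.34 CPM, the other 4 rats 10.3 to 17.8 CPM). The remaining leukocyte values were Tnfrsf11a in TGFBR1 inhibitor rat P17 (1.47 CPM, the other 4 rats 17.4 to 23.8 CPM), Tnfrsf1a in combination rat P33 (140.3 CPM, the other 5 rats 24.4 to 40.4 CPM), Tnfsf12 in untreated rat C17 (4.78 CPM, the other 6 rats 14.8 to 24.7 CPM) and Tnfsf9 in untreated rat C3 (3.11 CPM, the other 6 rats 25.1 to 91.6 CPM). In epithelial libraries, combination rat P33 stood apart for Tnf (6.1 CPM, the other 5 rats 0 to 0.248 CPM), a batch 3 library beside 1 of batch 3 (rat P23, 0.248 CPM) and 4 of batch 2, and for Tnfrsf1a (394 CPM, the other 5 rats 94.3 to 135 CPM), the same rat and gene as in leukocytes. Untreated rat C9, the 1 untreated epithelial library of batch 3, stood apart for Tnf (3.28 CPM, the other 7 rats all at 0) and Tnfsf4 (2.05 CPM, the other 7 rats 0 to 0.474 CPM). The other epithelial values were Tnfrsf9 in untreated rat C17 (0.067 CPM, the other 7 rats 15 to 50.1 CPM), Tnfrsf9 in vehicle rat P10 (1.66 CPM, the other 6 rats 8.3 to 16.4 CPM), Tnfrsf18 in TGFBR1 inhibitor rat P17 (22.5 CPM, the other 3 rats 1.49 to 2.43 CPM) and Tnfsf4 in anti-PD-L1 rat P28 (19.2 CPM, the other 6 rats 0 to 1.85 CPM). Of all epithelial columns, that of P28 had the highest Ptprc (124 CPM).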

How the results depend on the processing

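Members called at an adjusted p under 0.05 went from 0 to 2 (TGFBR1 inhibitor, leukocytes) with DESeq2, to 2 (anti-PD-L1) and 3 (combination) when each column was its own library, and to 2 (combination) with limma voom on columns and the rat as a random block. Leaving out 1 rat at a time gave 0 to 2 members under the inhibitor (2 without vehicle rat P7) and 0 elsewhere. Over all genes, DESeq2 called 430, 65 and 92 genes in leukocytes and 40, 1 and 0 in epithelium; single columns gave 361 (anti-PD-L1) and 978 (combination) in leukocytes and 5 (combination) in epithelium; voom gave 3 and 275 in leukocytes. The leave-one-out range was 0 to 330 genes for the inhibitor in leukocytes. RLE size factors, no filter, a filter at 5 CPM, no batch covariate, 1 batch alone, only 2 groups and stricter classes left all counts at 0. In the single-column fits, tumours of 1 rat count as replicates, and columns that the rat libraries left out are included. The cause of the differences between settings was not tested.

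Of 411 values of named members under alternatives, 398 kept direction and side of the threshold, 10 passed it and 3 reversed: Tnfsf9 in epithelium under the inhibitor with voom (-0.60) and Tnfsf4 in epithelium under anti-PD-L1 without rat P28 and with stricter classes (-0.24 in both; -0.24 to 3.45 over single rats left out). The counts of members on the leukocyte and epithelial side were 12 to 14 and 5 to 7 under all 6 alternatives, 3 of them (both classes in the same batch, pseudocounts of 0.1 and 2 CPM) chosen after seeing the data. No paired analysis was possible because the rats differ between groups and replicate numbers follow accession order only. The comparison of untreated tumours with glands was not run, since no gland column could be used. Depth limits Tnfsf11, Tnfrsf17, Tnfsf13b and Tnfsf15.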

Other observations

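The 2 columns that fell in neither class were left out of all comparisons. The untreated tumour T1 of rat C5 had 165 CPM of Ptprc and 19 CPM of Epcam, with 1225 CPM of Tnfrsf4, 1196 CPM of Tnfrsf9, 382 CPM of Tnfrsf18 and 360.0 CPM of Tnfrsf1b, all above the highest epithelial library. The vehicle tumour T2 of rat P6 had 7.01 CPM of Ptprc and 11.9 CPM of Epcam, with 123 CPM of Tnfrsf1a, 26.6 CPM of Tnfrsf11b, 70.5 CPM of Tnfsf12 and 72.3 CPM of Tnfrsf21, the last below the lowest epithelial library.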
